A study of Mus musculus with 8 samples.

Results

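Messenger RNA of the mouse corpus callosum, the largest white matter tract of the brain, was sequenced in 8 libraries, and 10 genes that mark oligodendrocyte precursors and their differentiation were followed across them. The genes were chosen by symbol, from precursor (*Pdgfra* and *Cspg4*) through committed cells (*Gpr17*, *Bcas1*, and *Enpp6*) to the transcription factors of the lineage (*Olig1*, *Olig2*, *Sox10*, *Nkx2-2*, and *Myrf*). The rule uses symbols and no measured value, but the list was drawn up with earlier results of these data known. All 10 were among the 25239 genes of the deposited table, and all 10 were among the 18123 genes that passed the filter on low values (mean of 0.1 or more) and entered the tests. The libraries came from mice aged 8 to 12 weeks. The mice were either male C57BL/6J animals (labelled WT) or animals lacking TRPA1 in every cell and backcrossed to C57BL/6J (labelled TRPA1-KO). The paper states the sex of the WT animals only. TRPA1 is a redox-sensitive cation channel. The mice had either bilateral common carotid artery stenosis (BCAS), in which microcoils around both carotid arteries lower the blood flow to the brain, or a sham operation without coils. Each label had 1 BCAS library on each of postoperative days 7, 10, and 14, and 1 sham library on day 14, each from 1 mouse. The days therefore stood in as the replicates of a label (n = 3), both sham libraries formed 1 reference group (n = 2), and no day had a replicate within a label.

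Oligodendrocyte precursors carry the platelet-derived growth factor receptor PDGFRα and the proteoglycan NG2, divide slowly throughout adult white matter, and are the source of new myelinating cells. Precursors that leave the cycle pass through a committed stage, marked by the receptor GPR17 and then by BCAS1 and ENPP6, before they express the major myelin proteins. The HLH factors OLIG1 and OLIG2, the SOX factor SOX10, the homeodomain factor NKX2-2, and the membrane-bound factor MYRF direct successive steps of this course. The gene *Bcas1* shares only its letters with the BCAS operation.

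The libraries held between 7896071 and 12952093 reads counted in genes, and the members were backed by 47 reads (*Nkx2-2*) to 4757 reads (*Bcas1*) in a library. Reads of *Trpa1* went against the genotype labels, with 0 to 1 read in each library labelled WT and 3 to 11 reads in each labelled TRPA1-KO, so libraries are named by their labels throughout and every direction between labels rests on them. Genes of mature oligodendrocytes were abundant, with sums over the 10 genes of that list from 12630 to 16891 normalised read counts (CPM, reads scaled to library size as deposited). Genes of striatal projection neurons were also present in all 8 libraries, with a summed level over 6 genes of 537 to 1352 CPM. In the BCAS library labelled WT of day 7 the microglial sum was 564 CPM, against 203 to 351 CPM in the other 7 libraries, and the sum of 5 genes of dividing cells was 63.4 CPM, against 11.5 to 22.7 CPM in the others.

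The level of each member per kilobase of exon, averaged over the 8 libraries, placed *Bcas1* first with 82.1 ± 10.2 CPM per kilobase (SD, n = 8) and *Olig1* next with 68.3 ± 7.65. *Bcas1* was above *Olig1* in 7 of 8 libraries. *Sox10* followed with 23.4 ± 2.63, and then came *Gpr17* (16.9 ± 4.23), *Olig2* (16.2 ± 2.22), and *Myrf* (15.1 ± 2.35), whose levels per kilobase did not separate. *Gpr17* was above *Olig2* in 4 of 8 libraries, and *Olig2* above *Myrf* in 5 of 8. The precursor receptor *Pdgfra* stood at 5.98 ± 0.53 CPM per kilobase and *Enpp6* at 4.28 ± 0.518, each above the next gene in all 8 libraries. *Nkx2-2* (2.50 ± 0.608) and *Cspg4* (2.03 ± 0.371) were lowest and overlapped, with *Nkx2-2* the higher in 6 of 8 libraries. Exon lengths were those of a GENCODE annotation of GRCm38, since the annotation behind the counts was not given in the sources used here.

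RefSeq promoter windows on GRCm38.p6 were at hand for 5 of the 10 members, and those of *Pdgfra* and *Enpp6* are shown because both are surface-protein genes of successive stages and their windows overlap no annotated untranslated exon. Each shows the 250 bases before the RefSeq gene start, 5′ to 3′ on the strand of the gene. Every E-box (CANNTG, a palindromic pattern, the kind of site that bHLH factors such as OLIG2 recognise) is in capitals. Gene coordinates given below are from GENCODE, in which *Pdgfra* starts at 75152292 and does not adjoin its window. The *Pdgfra* window is chr5:75152001-75152250 on the plus strand and the *Enpp6* window chr8:46986637-46986886 on the plus strand.
Pdgfra: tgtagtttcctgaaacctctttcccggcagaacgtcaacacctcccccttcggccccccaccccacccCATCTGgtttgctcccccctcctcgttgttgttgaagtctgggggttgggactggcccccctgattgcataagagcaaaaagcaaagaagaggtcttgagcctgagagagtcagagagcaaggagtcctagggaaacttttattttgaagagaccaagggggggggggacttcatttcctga
Enpp6: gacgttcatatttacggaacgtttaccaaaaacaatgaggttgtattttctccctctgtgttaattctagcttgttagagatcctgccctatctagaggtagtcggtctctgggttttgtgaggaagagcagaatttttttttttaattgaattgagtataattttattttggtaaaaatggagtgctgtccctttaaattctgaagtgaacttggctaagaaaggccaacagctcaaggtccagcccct
The *Pdgfra* window held 1 E-box and the *Enpp6* window 0, whereas 66.2% of 32851 promoter windows of the same length held at least 1. A SOX core (ACAANG, both strands) was found 1 time in each window and in 36.3% of all windows. These matches describe letters only, and no binding was measured.

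**Figure D1:**
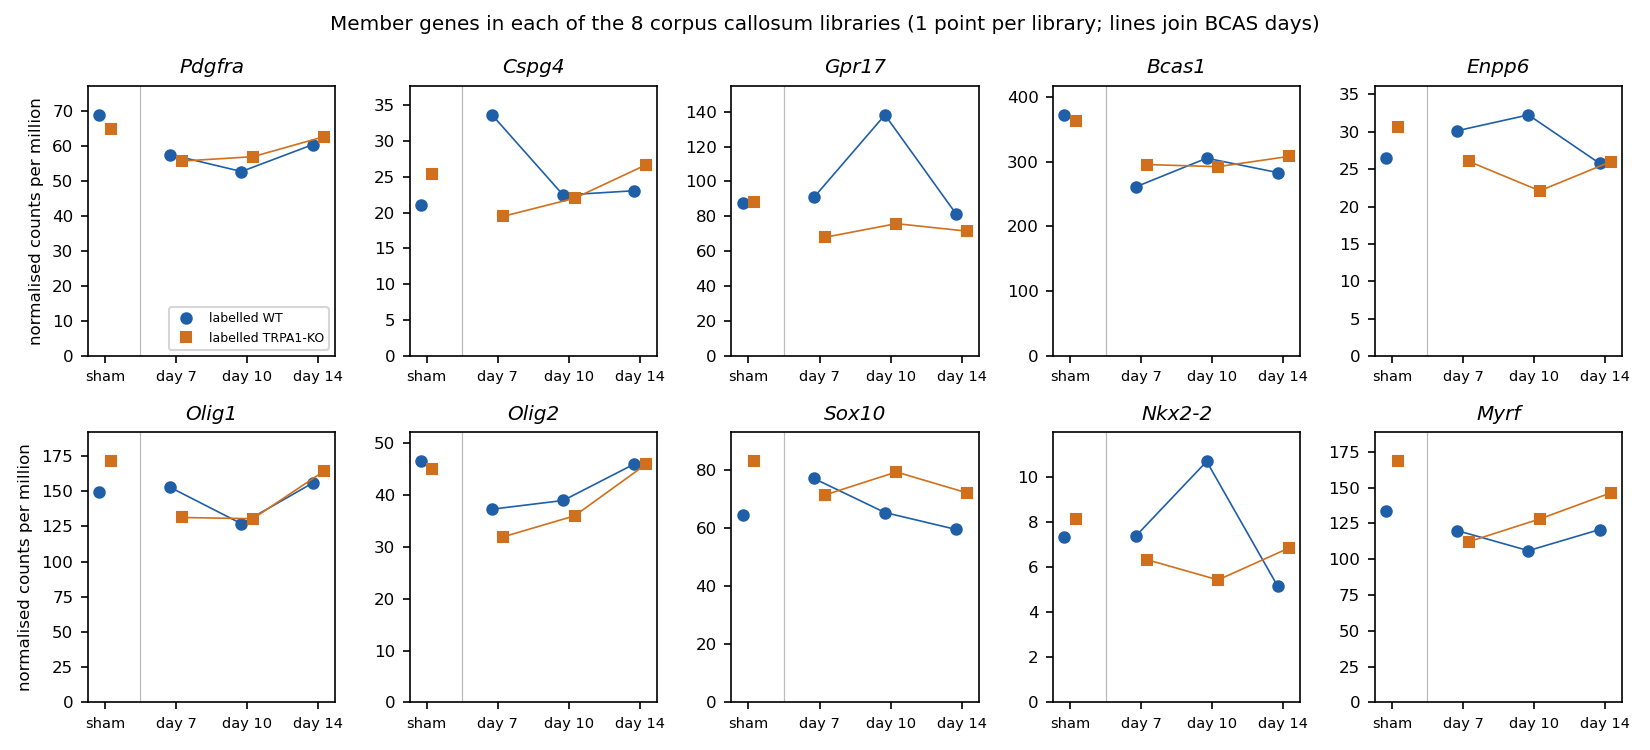
Level of each member gene (CPM, axis from 0) in the sham libraries and on days 7, 10, and 14 after BCAS, with 1 point per library, circles for libraries labelled WT and squares for those labelled TRPA1-KO. Bcas1 and Pdgfra lie highest in both sham libraries, and Gpr17 and Nkx2-2 peak in the BCAS library labelled WT of day 10, at 138 and 10.7.

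Of the precursor genes, *Pdgfra* (chr5:75152292-75198215), the receptor for the PDGF ligands that keep precursors dividing, stood at 68.8 CPM in the WT sham library and 64.9 CPM in the TRPA1-KO one. After BCAS it stood at 57.5, 52.7, and 60.3 CPM on days 7, 10, and 14 under the WT label and at 55.7, 56.9, and 62.6 CPM under the TRPA1-KO label. Both sham libraries were above all 6 BCAS libraries, while the labels overlapped. The means were 66.9 ± 2.78 CPM in sham (SD, n = 2) and 57.6 ± 3.50 CPM after BCAS (SD, n = 6), a difference of -0.21 in log2(value + 1) (SE 0.081), which reached p = 0.0357 in an exact two-sided permutation test, the smallest value that 6 libraries against 2 can give. In limma across all genes the adjusted p was 1. Without the sham library labelled WT the difference was -0.15, which, with label as a term of the fit, compares only the libraries labelled TRPA1-KO. In bulk tissue, fewer cells of a type and less RNA per cell cannot be told apart.

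*Cspg4* (chr9:56865033-56899870), which encodes NG2 and is also made by pericytes, behaved otherwise. It stood at 21.0 and 25.3 CPM in the sham libraries, at 33.6, 22.4, and 23.0 CPM after BCAS (days 7, 10, and 14) under the WT label, and at 19.5, 22.0, and 26.6 CPM under the TRPA1-KO label. Only the day 7 library labelled WT stood apart, 1.73-fold above the library of the same day labelled TRPA1-KO. The same library had the highest sum of the 4 fibroblast genes, 31.8 CPM against 11.5 to 25.3 CPM in the other 7, and the highest pericyte sum over 6 genes, 227 CPM against 197 to 226 CPM. No gene of either list was at 0 in all libraries. The microglial and dividing-cell sums were highest in the day 7 library labelled WT too, as given above. The part of these cells in the *Cspg4* level was not tested. BCAS and sham means were 24.5 ± 5.01 CPM (n = 6) and 23.2 ± 3.02 CPM (n = 2), and the 95% interval of the log2 difference ran from -0.32 to 0.44.

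Of the committed genes, *Gpr17* (chr18:31942997-31949636), a receptor that appears as precursors commit and disappears as they myelinate, was almost level in the sham libraries, at 87.7 CPM under the WT label and 88.4 CPM under the TRPA1-KO label. After BCAS it stood at 90.8, 138, and 81.4 CPM on days 7, 10, and 14 under the WT label, and at 68.0, 75.8, and 71.5 CPM under the TRPA1-KO label. All 3 BCAS libraries labelled WT were above all 3 labelled TRPA1-KO, by 1.33-fold on day 7, 1.82-fold on day 10, and 1.14-fold on day 14. The means were 103 ± 30.4 and 71.8 ± 3.91 CPM (SD, n = 3 each), a difference of 0.48 in log2(value + 1) (SE 0.16, 95% interval 0.12 to 0.85). The exact two-sided permutation test gave p = 0.1, the smallest that 3 libraries against 3 allow, and the adjusted p of limma was 0.983. Without the day 10 library labelled WT the difference was 0.26, against 0.48 with it, still with an unadjusted limma p under 0.05. Without the day 7 library labelled TRPA1-KO it was 0.45, and without the filter on low values 0.48, in both cases no longer with an unadjusted limma p under 0.05. In the day 10 library labelled WT the microglial sum was 351 CPM and the astrocyte sum 4993 CPM. These sums were 214 and 3825 CPM in the day 10 library labelled TRPA1-KO, and their part in the difference was not tested. With the sham libraries added the difference between labels was 0.36 (SE 0.15, exact permutation p = 0.0857, 4 against 4 libraries).

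Against the sham mean of 88.1 ± 0.505 CPM (n = 2), *Gpr17* was lower in all 3 BCAS libraries labelled TRPA1-KO, by -0.29 in log2(value + 1) (SE 0.17), whereas the BCAS libraries labelled WT lay on both sides of it (0.19, SE 0.17). The first difference had an exact permutation p of 0.1, the smallest possible, and the second one of 0.8. *Gpr17* lies within *Lims2*, on the opposite strand and with overlapping exons, and the strand setting of the counting was not given in the sources used here. *Lims2* is itself counted here among the genes of newly formed oligodendrocytes, at 21.7 to 35.3 CPM. Like *Gpr17*, it was highest in the day 10 library labelled WT. Since the exons overlap, reads of the 2 genes may not be fully separate, which was not tested.

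*Bcas1* (chr2:170346991-170427845), a gene of early myelinating oligodendrocytes, had the largest difference between BCAS and sham relative to its error among the members. It stood at 372 and 363 CPM in the sham libraries labelled WT and TRPA1-KO. After BCAS it stood at 261, 305, and 283 CPM on days 7, 10, and 14 under the WT label, and at 296, 292, and 308 CPM under the TRPA1-KO label. All 6 BCAS libraries were below both sham libraries, and the labels overlapped. The mean was 20.8% lower, 291 ± 17.3 against 367 ± 6.71 CPM, a difference of -0.34 in log2(value + 1) (SE 0.078, 95% interval -0.51 to -0.17). The exact two-sided permutation test, which exchanged libraries regardless of label, gave p = 0.0357, the smallest that 6 libraries against 2 can give. The adjusted p of limma was 1, that of edgeR was also 1, and that of DESeq2 on the recovered reads was 0.0487. The difference from sham was -0.38 (SE 0.084) under the WT label and -0.30 (SE 0.084) under the TRPA1-KO label, both against the same sham libraries. An antisense gene, *Bcas1os2*, shares exons with *Bcas1* and was counted at 31.8 to 49.5 CPM.

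*Enpp6* (chr8:46986887-47096762), a choline phosphodiesterase of newly forming oligodendrocytes, stood at 26.5 and 30.7 CPM in the sham libraries. It stood at 30.1, 32.3, and 25.8 CPM after BCAS (days 7, 10, and 14) under the WT label and at 26.0, 22.1, and 26.0 CPM under the TRPA1-KO label. On day 10 the level under the WT label was 1.46-fold that under the TRPA1-KO label, and on day 14 the libraries were level. The means of 29.4 ± 3.30 and 24.7 ± 2.27 CPM (SD, n = 3 each) differed by 0.24 in log2(value + 1) (SE 0.12, 95% interval -0.02 to 0.50), and the exact permutation test gave p = 0.3. Against sham, the 3 BCAS libraries labelled TRPA1-KO were all lower (-0.20, SE 0.13), and those labelled WT were not (0.04, SE 0.13).

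Of the transcription factors, *Olig2* (chr16:91225457-91228677) was lowest on day 7 after BCAS under both labels. It stood at 37.3, 38.9, and 46.0 CPM on days 7, 10, and 14 under the WT label and at 31.9, 36.0, and 45.9 CPM under the TRPA1-KO label, with sham levels on day 14 of 46.5 and 45.1 CPM. In both labels the order of the levels was that of the days, and by day 14 the level was that of the sham libraries. The slope was 0.06 in log2(value + 1) per day (SE 0.015), with an exact permutation p of 0.0278, the smallest that exchanging days within labels allows, and an adjusted p of 0.94 in limma. Without the day 14 library labelled TRPA1-KO the slope was 0.05 per day and no longer had an unadjusted limma p under 0.05. Its neighbour *Olig1* (chr16:91269772-91271933) stood at 153, 127, and 156 CPM under the WT label and at 131, 130, and 164 CPM under the TRPA1-KO label on the same days, against 149 and 171 CPM in sham (slope 0.03 per day, SE 0.018, exact permutation p = 0.278). The summed level of the 6 striatal neuron genes was lowest on day 7 too, at 537 and 575 CPM, against 671 to 952 CPM on days 10 and 14, and its part in the slope was not tested.

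*Myrf* (chr19:10208272-10240748), the factor that turns on myelin genes, stood at 134 and 168 CPM in the sham libraries labelled WT and TRPA1-KO. After BCAS it stood at 120, 106, and 121 CPM on days 7, 10, and 14 under the WT label and at 112, 128, and 146 CPM under the TRPA1-KO label. The day 14 library labelled TRPA1-KO was above the sham library labelled WT, so BCAS and sham overlapped. The log2 difference of all BCAS from sham was -0.30 (SE 0.099, exact permutation p = 0.107). Without the sham library labelled TRPA1-KO it was -0.21, which, with label as a term of the fit, compares only the libraries labelled WT. Each BCAS library was below the sham library of its own label, at 66.7% to 90.2% of it.

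*Sox10* (chr15:79154908-79165240), which acts throughout the lineage, stood at 64.5 and 82.9 CPM in the sham libraries labelled WT and TRPA1-KO. It stood at 77.0, 65.3, and 59.5 CPM after BCAS under the WT label and at 71.4, 79.2, and 72.0 CPM under the TRPA1-KO label on days 7, 10, and 14. It was lower over the 4 libraries labelled WT (66.6 ± 7.42 CPM) than over the 4 labelled TRPA1-KO (76.4 ± 5.61 CPM), by -0.20 in log2(value + 1) (SE 0.086), with an exact permutation p of 0.0857 and an adjusted p of 0.999 in limma. The sham libraries showed this order as well.

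*Nkx2-2* (chr2:147177546-147194243), a factor of the onset of differentiation, was the member with the fewest reads, 47 to 94 per library. It stood at 7.35 and 8.15 CPM in sham, at 7.38, 10.7, and 5.16 CPM after BCAS (days 7, 10, and 14) under the WT label, and at 6.35, 5.45, and 6.87 CPM under the TRPA1-KO label. The day 10 libraries differed 1.97-fold between labels, and the day 14 libraries lay the other way. The spread of the 3 libraries labelled TRPA1-KO (coefficient of variation 11.6%) was within that of counting reads alone (13.1%), whereas that of the 3 labelled WT (36.1%) was above it (11.8%). An antisense gene, *Nkx2-2os*, shares exons with it and was counted at 3.02 to 5.27 CPM.

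**Figure D2:**
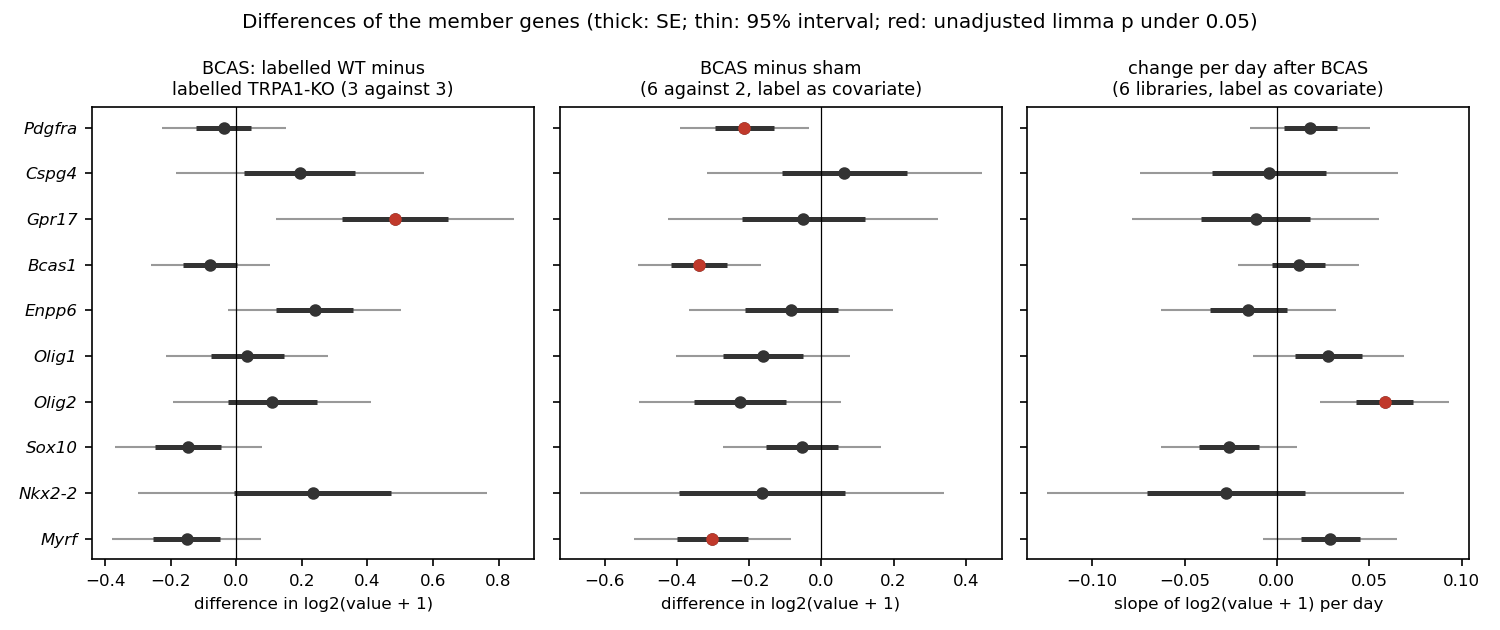
Difference of each member between labels after BCAS, between BCAS and sham, and per day after BCAS, on the log2(value + 1) scale, with SE (thick) and 95% interval (thin), and red points where the unadjusted limma p was under 0.05. Gpr17 alone is red between labels (0.48), Bcas1, Pdgfra, and Myrf are red against sham, and Olig2 is red per day.

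Counted over the list, 1 of 10 members (*Gpr17*) had an unadjusted limma p under 0.05 between BCAS libraries labelled WT and TRPA1-KO, where 4.2% of all tested genes did. The same 1 member had labels that did not overlap, as did 9.21% of all genes. The median log2 difference of the members was 0.07, with 6 higher and 4 lower under the WT label, and that of all genes was 0.00. In a list of 10, 1 gene is close to what these shares give.

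Against sham, 9 of 10 members were lower after BCAS in the fit over both labels, with a median of -0.16 beside 0.00 over all genes, where 49.5% of genes were higher. The exception was *Cspg4*. With label as a term of the fit, leaving out the sham library labelled TRPA1-KO left only BCAS and sham labelled WT to compare. The median was then -0.015, by construction the same as for BCAS under the WT label alone without that library. The median under the WT label therefore rests on that library. Of the 10, 3 (*Bcas1*, *Pdgfra*, and *Myrf*) had an unadjusted limma p under 0.05, all lower, beside 3.54% of all genes in either direction. In 2 (*Bcas1* and *Pdgfra*) both sham libraries were above all BCAS libraries, beside 3.59% of all genes, and 6.19% of all genes did not overlap in either direction. With the label WT, 3 of 10 members (the same 3 genes) had an unadjusted p under 0.05, beside 5.45% of all genes, and these 3 did not overlap with sham, beside 19.9% of all genes. With the label TRPA1-KO, 1 of 10 (*Bcas1*) had such a p, beside 2.74% of all genes, and 5 (*Pdgfra*, *Gpr17*, *Bcas1*, *Enpp6*, and *Nkx2-2*) lay wholly below sham, beside 18.6% of all genes not overlapping in either direction. Both comparisons used the same sham libraries. The members are not independent of one another, and no test was made over the list. The median member difference was -0.14 under the WT label and -0.21 under the TRPA1-KO label.

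Over all 4 libraries of each label, 3 members (*Gpr17* higher, *Sox10* and *Myrf* lower under the WT label) had an unadjusted p under 0.05, beside 3.87% of all genes, and 0 members had labels that did not overlap, beside 2.46% of all genes. Per day after BCAS, 1 member (*Olig2*) had such a p, beside 4.93% of all genes. In these comparisons 0 members had an adjusted p under 0.05 in limma or edgeR, and with DESeq2 only *Bcas1* had one, in the comparisons of BCAS labelled WT and of all BCAS with sham. Members with an unadjusted p under 0.05 numbered 1 to 3 in each comparison with each of the 3 tools.

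Genes of mature oligodendrocytes were lower after BCAS as well. The summed level of 10 of them was 15364 and 16891 CPM in the sham libraries and 12630 to 14308 CPM after BCAS, and 10 of 10 were lower, 4 of them (*Mog*, *Mag*, *Ermn*, and *Aspa*) with an unadjusted limma p under 0.05, beside 3.54% of all genes. Their median log2 difference of -0.27 stood beside -0.16 for the precursor and differentiation genes. Under the TRPA1-KO label alone, 9 mature genes were lower than in sham and 1 higher. There 1 of the mature genes had an adjusted limma p under 0.05, the only one of all tested genes, and under the WT label 0 did. Per 1000 CPM of the mature sum, *Bcas1* was at 24.2 and 21.5 in the sham libraries and at 20.0 to 23.7 after BCAS, so on this scale the groups overlapped. *Pdgfra* overlapped on this scale as well, at 4.48 and 3.84 in the sham libraries and at 4.09 to 4.42 after BCAS. All 6 striatal projection neuron genes were lower after BCAS as well, each with an unadjusted limma p under 0.05, with a summed level of 1024 and 1352 CPM in sham and 537 to 952 CPM after BCAS. The 4 red blood cell genes were lower too (median log2 difference -2.51, *Hba-a1* and *Hba-a2* with such a p), with sums of 62.4 and 202 CPM in sham and 1.11 to 131 CPM after BCAS. All 5 microglial genes (median 0.38), all 6 astrocyte genes (0.13), and all 4 fibroblast genes (0.38) were higher after BCAS, with sums that overlapped those of sham. Against sham these medians were 0.63, 0.27, and 0.53 under the WT label. Under the TRPA1-KO label they were 0.06, -0.01, and 0.28, with 3 astrocyte genes higher and 3 lower. The part of these cells in the differences from sham was not tested.

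**Figure D3:**
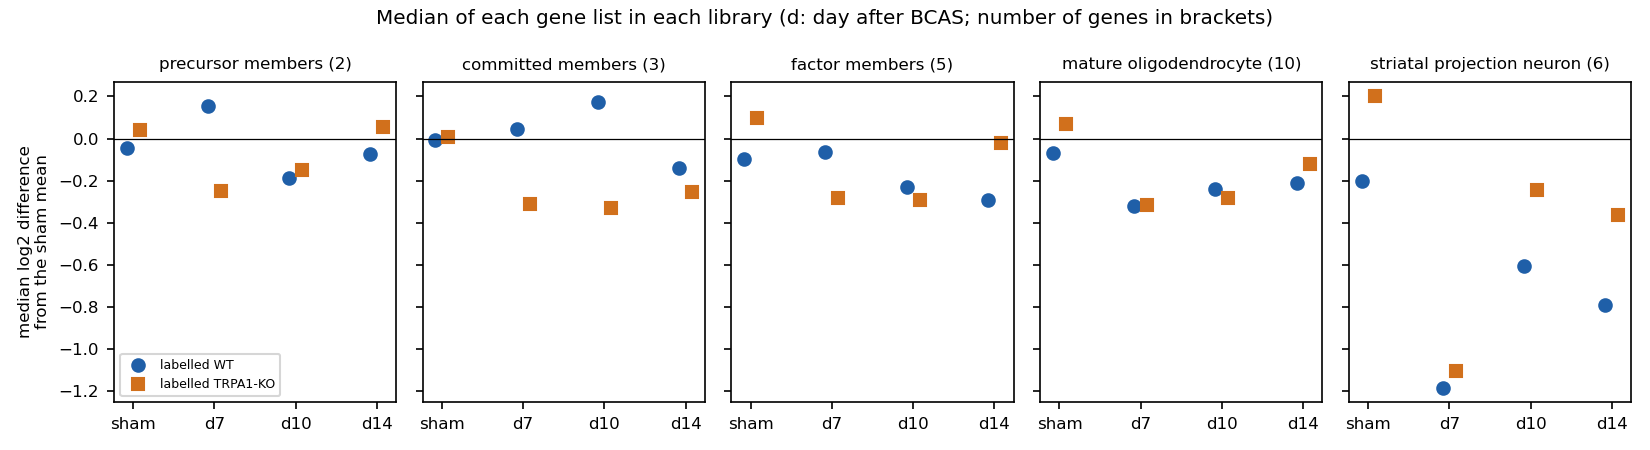
Median log2 difference from the sham mean of the member genes by role, of mature oligodendrocyte genes, and of striatal projection neuron genes, with 1 point per library, by day after BCAS (d) and label. The mature oligodendrocyte medians lie below both sham libraries in all BCAS libraries, and the committed members lie at 0.04 and 0.17 on days 7 and 10 under the WT label and at -0.31 and -0.33 under the TRPA1-KO label, whereas on day 14 they lie at -0.14 and -0.25.

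Another 41 genes of the lineage, grouped by role, were read beside the members. Between BCAS libraries of the labels, 5 were higher and 2 lower under the WT label at an unadjusted limma p under 0.05 (4.2% of all genes), and 0 passed adjustment. Of the 11 genes of committed or newly formed oligodendrocytes, 9 were higher under the WT label, 4 of them with such a p (*Bmp4*, *Itpr2*, *Neu4*, and *Lims2*), with a median of 0.12. Genes of several other cell types lay the same way and farther. Higher under the WT label were 5 of 5 microglial genes (median 0.55), 5 of 5 genes of dividing cells (0.53), and 4 of 4 fibroblast genes (0.32). So were 5 of 6 astrocyte genes (0.30), 3 of 4 endothelial genes (0.20), and 5 of 6 pericyte genes (0.17). The dividing-cell sum was 63.4, 16.0, and 12.5 CPM on days 7, 10, and 14 under the WT label. It was 11.5 to 16.3 CPM after BCAS under the TRPA1-KO label. Most neuronal genes were lower, namely 6 of 6 striatal (median -0.29), 3 of 4 cortical (-0.05), and 2 of 3 general (-0.08) ones. The part of these cells was not tested. *Bmp4*, a ligand made by committed precursors that holds back their maturation, stood at 4.54, 5.55, and 4.39 CPM on days 7, 10, and 14 under the WT label and at 1.67, 1.28, and 3.33 CPM under the TRPA1-KO label, with 2.66 and 1.44 CPM in sham. These levels rested on 12 to 51 reads per library. The labels did not overlap after BCAS (difference 0.96, SE 0.26), and the exact permutation p was 0.1, the smallest possible. *Itpr2*, a calcium channel of newly formed cells, was at 41.2 ± 6.26 against 30.2 ± 4.09 CPM (0.43, SE 0.13) with overlap, and the precursor proteoglycan *Vcan* at 38.6 ± 0.892 against 31.6 ± 5.18 CPM (0.29, SE 0.12) without. *Gpr37*, a receptor that restrains differentiation, was lower under the WT label (102 ± 9.29 against 126 ± 16.1 CPM).

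Of the 41 genes, 0 were higher and 6 lower after BCAS than in sham at an unadjusted limma p under 0.05 (3.54% of all genes), with a median of -0.07. *Cacng4*, a subunit of the AMPA receptors of precursors, differed by -0.34 (SE 0.12, exact permutation p = 0.0357), *Gpr37* by -0.26 (SE 0.098), and *Pdgfc*, a ligand of PDGFRα, by -0.53 (SE 0.20). Under the WT label alone (5.45% of all genes), 2 were higher (*Bmp4* by 0.96, SE 0.29, and the ligand *Pdgfb* by 0.26, SE 0.11) and 5 lower, among them *Gpr37* (-0.41, SE 0.12) and *Id4* (-0.32, SE 0.14). Under the TRPA1-KO label (2.74% of all genes), 0 were higher and 6 lower, led by *Vcan* (-0.46, SE 0.12), the sialidase *Neu4* (-0.55, SE 0.18), and *Pdgfc* (-0.64, SE 0.22). Over all 4 libraries of each label (3.87% of all genes), *Bmp4* (0.87, SE 0.21) and *Itpr2* (0.36, SE 0.12) were higher under the WT label, and *Gpr37* (-0.30, SE 0.084) and *Id4* (-0.22, SE 0.093) were among those lower. Per day after BCAS (4.93% of all genes), 4 had a positive slope with such a p, led by *Gpr37* (0.04 per day, SE 0.012), *Tnr* (0.09, SE 0.026), and the factor *St18* (0.06, SE 0.021), and *Id2*, an inhibitor of differentiation, had a negative one (-0.04, SE 0.013). None of these genes had an adjusted p under 0.05 in limma.

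**Figure D4:**
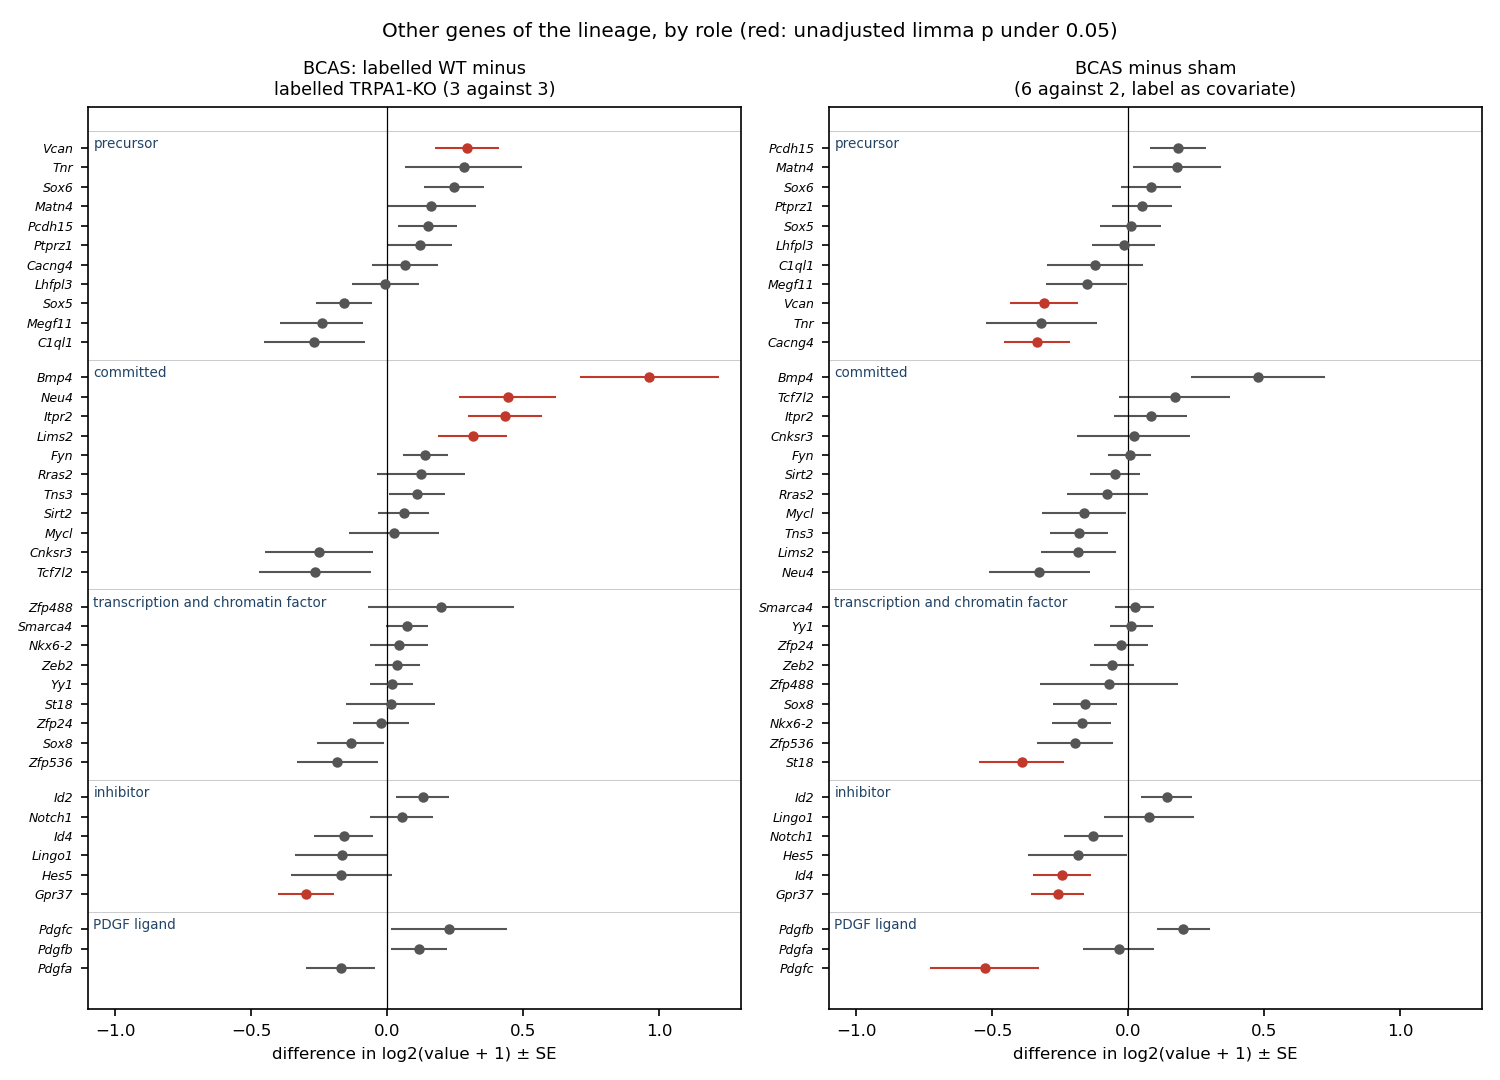
Difference of 40 of the other 41 lineage genes by role on the log2(value + 1) scale with SE, between labels after BCAS on the left and between BCAS and sham on the right, red where the unadjusted limma p was under 0.05. Bmp4 lies farthest to the right between labels (0.96), and 4 of the 11 committed genes are red there, while the 6 red genes against sham are all lower.

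Among 10743 genes averaging 10 CPM or more, those whose log2(value + 1) followed a member most closely over the 8 libraries were listed, as a description without a test, since the libraries share labels, days, and composition and the genes were picked as the highest of all. *Gpr17* was followed most closely by *Fyn* (Pearson r = 0.96, Spearman rho = 0.86), a kinase of the lineage, then *Ptk7* (0.95 and 0.98), *Sox6* (0.94 and 0.76), *Rfx4*, and *Slc16a6*. *Fyn* and *Sox6*, like *Gpr17*, were highest in the day 10 library labelled WT, at 143 and 35.7 CPM, against 115 to 125 CPM and 25.2 to 29.4 CPM in the other 7. *Pdgfra* was followed by *Lcmt1* (0.97 and 0.95), *Adprhl2*, *Tmem39a*, *Acap2*, and *Cul5*. *Enpp6* was followed by *Ankle2* (0.96 and 0.74), *Dynlt1b*, *Zhx1*, *Zfpl1*, and *Slc39a12*, and *Myrf* by *Rassf2* (0.97 and 0.95), *Rngtt*, *Cd4*, *Tns1*, and *Usp54*.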

How the data were processed

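Corpus callosum mRNA was sequenced in 8 libraries, 1 mouse each. The authors selected polyadenylated RNA, mapped reads to GRCm38 with HISAT, counted reads per gene with featureCounts of the Subread package, and normalised them with edgeR. The deposited signal is these counts per effective library size on the CPM scale, without logarithm. The gene annotation, strand setting and any filter were not given in the sources used here. In every library 100% of the values were whole multiples of 1 read (tolerance 0.001 reads), so reads were recovered, 7896071 to 12952093 per library.

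Libraries were grouped by their deposited labels. Values were tested as log2(value + 1) with limma 3.58.1 (R 4.3.3, trended eBayes, two-sided) over 18123 genes averaging 0.1 or more, with Benjamini-Hochberg adjustment over all of them. Fold changes on this scale understate the change of low genes. Label was a term in the fits of all BCAS against sham and per day, and operation in the fit over all libraries of the labels. Single genes were also tested by exact permutation over libraries, which left these terms out. Only for the slope were days exchanged within labels. edgeR 4.0.16 and DESeq2 1.42.0 on the recovered reads, other pseudocounts and filters, and leaving out each library were alternatives. Only the comparison between labels after BCAS was also run on simulated data, which held no differences between days or in cell composition. The p-values measure the spread between single mice of different days.

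The members and lists were chosen with earlier results of these data known. The members are given in full. Of the other lineage genes, up to 3 per direction and comparison with the smallest limma p under 0.05 are named (1 gene of the list is counted but not reported here), as are the 5 genes most like *Pdgfra*, *Gpr17*, *Enpp6*, and *Myrf*. *Lims2*, *Bcas1os2*, and *Nkx2-2os* are named for their overlap with members.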

Additional observations from a re-analysis of the deposited data

Results flagged for a closer look

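Of 30 groups of 4 or 6 libraries looked at over the members, 3 held a library far from the others by Dixon's criterion at the 95% level, which chance alone exceeds in about 1 in 20 groups. *Cspg4* in the BCAS library labelled WT of day 7 stood at 33.6 CPM, with a gap to the next of the 4 libraries labelled WT of 0.841 of their range. *Gpr17* in the BCAS library labelled WT of day 10 stood at 138.1 CPM, with a gap of 0.835 of the range among the 4 libraries labelled WT and of 0.675 among the 6 BCAS libraries. The cause was not tested for either gene.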

How the results depend on the processing

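Over all alternatives, 155 recomputed counts and medians stayed close to their values and 23 moved. No member difference with an unadjusted p under 0.05 changed sign, while the median member difference between labels after BCAS and the median slope, both close to 0, did on leaving out 1 library. Without the filter on low values, the number of members with an unadjusted limma p under 0.05 was 0 between labels after BCAS (*Gpr17*, 0.48, lost it) and 2 for BCAS labelled TRPA1-KO against sham. Leaving out 1 library at a time, the number ran from 0 to 2 between labels after BCAS, where 2 came without the day 7 or the day 14 library labelled WT. It ran from 1 to 5 for BCAS labelled TRPA1-KO against sham, with 5 without the day 14 library labelled TRPA1-KO and 3 without the day 10 library labelled WT. It ran from 0 to 3 over all libraries of the labels, with 0 without either day 10 library and 1 without either sham library or the day 14 library labelled TRPA1-KO. It ran from 0 to 3 per day, with 3 without the day 7 library labelled WT, 2 without the day 7 library labelled TRPA1-KO, and 0 without its day 14 library. The median member difference ran from -0.011 to 0.20 between labels after BCAS. It ran from -0.17 to -0.015 for BCAS labelled WT and from -0.28 to -0.015 for all BCAS against sham, in both cases with -0.015 without the sham library labelled TRPA1-KO. Label was a term for all BCAS against sham, so without a sham library only the other label was compared, and both values of -0.015 are the same contrast. Operation was a term over all libraries of the labels, so without a sham library only the BCAS libraries were compared there. The median slope ran from -0.0061 to 0.025 per day. *Bcas1* kept an unadjusted p under 0.05 in 15 of 15 alternatives against sham, *Gpr17* between labels after BCAS in 13 of 15 (0.26 to 0.64), *Myrf* and *Pdgfra* in all BCAS against sham in 14 and 13 of 15, and the *Olig2* slope in 12 of 13. *Myrf* and *Pdgfra* kept it in BCAS labelled WT against sham in 14 and 12 of 15, and over all libraries of the labels *Gpr17* kept it in 11 of 16 and *Sox10* and *Myrf* in 9 of 16 each. The cause of these changes was not tested beyond the smaller number of libraries. Libraries of the same day and different labels correlated in their deviations by -0.10, 0.01, and -0.26, so the day did not pair them, and a day block cannot move the differences between labels after BCAS in this balanced design. With the day as a replicate block 1 member had an unadjusted p under 0.05 between labels after BCAS, as without it, and the adjusted limma p of *Gpr17* was 0.999. All of these tests are limited by the design, and *Nkx2-2* and *Bmp4* also rest on few reads.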
